A study of Mus musculus with 20 samples.

Results

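Promoters of mouse neurons labelled inhibitory were sorted by 2 histone marks that stand for opposite states. H3K4me3, trimethylation of lysine 4 of histone H3, is placed by Trithorax-type methyltransferases at the starts of active genes and of genes poised for activity. H3K27me3, trimethylation of lysine 27, is placed by Polycomb repressive complex 2 over silent developmental genes. Promoters that carry both marks are called bivalent and were first described at developmental regulators in embryonic stem cells. In the brain, genes of other neuron types and of other lineages are known Polycomb targets.

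A gene was placed in a class by the peaks of 2 H3K4me3 and 2 H3K27me3 libraries of nuclei labelled inhibitory. A mark was counted when both of its libraries had at least 1 base of peak within 2 kb of the same gene end. Of 21631 protein-coding genes on chromosomes 1 to 19 and X, 9013 (41.7%) had H3K4me3 only, 5077 (23.5%) had both marks, 3551 (16.4%) had H3K27me3 only and 3990 (18.4%) had neither. Taken singly, H3K4me3 was at 65.1% of all genes and H3K27me3 at 39.9%. Marks this frequent overlap at many genes without being linked, so the size of the class with both is not read as a link between them. The value per gene is the percent of its gene-end windows covered by peaks of a library. The 4 libraries made the classes, so their H3K4me3 and H3K27me3 values are given as a description, without a test.

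The libraries were made by CUT&RUN, in which an antibody directs a nuclease to its target and the released DNA is sequenced. Brains of mice aged 8 weeks were taken whole, and their nuclei were sorted by flow cytometry. Which gate was set is not stated in the labels. The animals of every group, both neuron types included, were Sun1 f/f and Emx1Cre (+): Cre was driven by Emx1, a gene of the dorsal forebrain whose lineage gives mostly excitatory cortical and hippocampal neurons, and Sun1 encodes a protein of the nuclear envelope. There were 10 groups of 2 libraries, inhibitory and excitatory neurons with antibodies against H3K4me3, H3K27me3, H3K27ac, H3K4me1 and the activity-induced transcription factor EGR1, and 20 libraries in all. The labels do not say whether replicate libraries stem from different animals, and p-values then cover only library-to-library spread, which may be technical.

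The H3K4me3 libraries labelled inhibitory held 159364 and 83532 peaks over 64.0 and 52.1 Mb, and the H3K27me3 libraries 313235 and 265968 peaks over 277 and 243 Mb. The deposited lists hold no read counts, so the depth behind them is unknown. By the authors' q-values, 23.9% and 47.6% of the H3K4me3 peaks had a q below 0.05, against 0.00990% and 0.00827% of the H3K27me3 peaks. H3K4me3 was concentrated at genes: 40.0% of gene-end windows had it in both libraries, against 8.68% of the 657845 tiles of 4 kb that make up the genome. H3K27me3 was not, with 28.7% of gene-end windows and 29.0% of tiles, so a window with H3K27me3 was no more frequent at gene ends than elsewhere. Of the genes with H3K4me3 in replicate 1, 89.8% had it in replicate 2, and 97.2% the other way round. The corresponding shares for H3K27me3 were 75.9% and 87.3%. The classes with H3K27me3 therefore rest on calls that were repeated less often between libraries and had fewer q-values below 0.05. These q-values come from narrow peak lists for H3K4me3 and broad ones for H3K27me3, so they are not a like measure. The same holds for a shared -log10 p threshold, here and in the recounts below. With peaks of a -log10 p of at least 2, the counts were 12627, 1253, 495 and 7256 genes in the order above.

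The marker genes ran partly against the label and partly with it. Gabra6, which encodes a GABA-A receptor subunit of cerebellar granule cells, glutamatergic neurons (gene ID 14399, chromosome 11, 42306437 to 42321072, mm10), was covered by H3K4me3 to 27.6% and 33.1% in the libraries labelled inhibitory, against 0% and 8.17% in those labelled excitatory. No H3K27me3 peak lay at its ends in any of the 4 libraries of that mark. Slc17a7, the vesicular glutamate transporter of cortical and granule neurons, had 33.3% and 36.9% H3K4me3 in the inhibitory libraries and 9.90% and 30.7% in the excitatory ones. It was in the class with both marks, so both inhibitory libraries had H3K27me3 at Slc17a7 as well. Gad1, which encodes a GABA-synthesizing enzyme, had 7.51% and 6.59% H3K4me3 in the inhibitory libraries, and 6.42% and 7.02% in the excitatory ones. Its H3K27me3 coverage was 15.6% and 32.1% in the inhibitory libraries, and 54.1% and 29.3% in the excitatory ones. Slc32a1, the vesicular GABA transporter, had 43.4% and 47.8% H3K27me3 in the libraries labelled inhibitory. Its H3K27ac was 0% in both of these, against 24.1% and 14.4% in the excitatory ones. Over the whole inhibitory list, 3 of 26 genes had H3K4me3 only, 20 had both marks and 3 had H3K27me3 only, and in the excitatory libraries 0, 22 and 4. With peaks of a -log10 p of at least 2, 16 of the 26 had H3K4me3 only in the inhibitory libraries and 6 both marks. H3K27ac was at 8 of the 26 in both inhibitory libraries and at 10 in both excitatory ones, while EGR1 was at 13 and 9. Of 21 excitatory forebrain genes, 10 had H3K27ac in both inhibitory libraries and 16 in both excitatory ones, and 14 and 18 had EGR1, which runs with the label. Over all genes the shares were 57.3% and 58.3% for H3K27ac and 57.2% and 63.3% for EGR1. EGR1 peaks covered 22.6 and 29.7 Mb in the inhibitory libraries and 48.8 and 50.2 Mb in the excitatory ones, and the part of this was not tested. H3K4me3 only went the other way, at 5 of the 21 in the inhibitory libraries and 3 in the excitatory ones.

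Of 16 cerebellar granule neuron genes, 13 had H3K4me3 only and 3 both marks in the libraries labelled inhibitory. In the excitatory libraries 1 had H3K4me3 only, 7 both marks, 7 H3K27me3 only and 1 neither. Their summed H3K4me3 coverage was 396 and 461 percentage points in the inhibitory libraries and 159 and 275 in the excitatory ones, and none of the 16 was at 0 in either inhibitory library. Other lists differed in direction. The thalamic, hypothalamic and brainstem list summed to 431 and 479 against 223 and 363, and the striatal list to 234 and 269 against 283 and 347. The excitatory H3K4me3 libraries covered 48.3 and 69.1 Mb, and the part of this in the sums was not tested. With each of the 4 inhibitory libraries left out in turn, 11 to 13 of the granule genes had H3K4me3 only, an alternative chosen after seeing the data. Both marks were then at 20 to 22 of the inhibitory genes. That count could not fall, because a mark then needs a peak in the remaining library alone. The cells are therefore called nuclei labelled inhibitory throughout. How many of each type they hold was not tested, and in a sorted mixture, a promoter with both marks in the same cells and one with each mark in different cells cannot be told apart.

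Promoters of genes that lead a class with a mark by coverage are given with those of 3 identity markers chosen after their values were seen, to show the sequences under the marks. The promoter of Olfr1014 was added from the class with neither mark, in which coverage gives no rank. No promoter shown was chosen as typical of its class in CpG. Each runs from 250 bases before to 50 after the start in RefSeq, build GRCm38.p6, the assembly behind mm10, read 5′ to 3′ on the strand of the gene, with CpG dinucleotides in capitals.
H2ac20 (H3K4me3 only, chr3:96220831-96221130, minus strand): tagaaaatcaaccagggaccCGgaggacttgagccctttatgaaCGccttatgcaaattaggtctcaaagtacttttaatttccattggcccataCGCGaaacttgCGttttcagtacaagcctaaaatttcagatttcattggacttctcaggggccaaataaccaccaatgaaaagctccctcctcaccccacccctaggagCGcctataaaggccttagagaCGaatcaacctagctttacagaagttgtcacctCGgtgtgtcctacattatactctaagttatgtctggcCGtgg
Gabra6 (H3K4me3 only, chr11:42321023-42321322, minus strand): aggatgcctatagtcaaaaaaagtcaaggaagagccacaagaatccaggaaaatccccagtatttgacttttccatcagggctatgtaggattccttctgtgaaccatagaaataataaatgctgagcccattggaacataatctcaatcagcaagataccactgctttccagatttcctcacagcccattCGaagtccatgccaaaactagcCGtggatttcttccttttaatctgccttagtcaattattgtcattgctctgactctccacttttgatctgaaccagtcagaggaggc
H3c10 (both marks, chr13:21717378-21717677, plus strand): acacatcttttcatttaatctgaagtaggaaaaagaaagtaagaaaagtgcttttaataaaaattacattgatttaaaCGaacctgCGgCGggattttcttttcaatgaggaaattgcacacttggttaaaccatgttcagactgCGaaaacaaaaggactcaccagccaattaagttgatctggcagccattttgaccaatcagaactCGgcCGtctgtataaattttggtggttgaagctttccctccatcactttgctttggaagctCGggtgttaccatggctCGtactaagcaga
Eomes (both marks, chr9:118477939-118478238, plus strand): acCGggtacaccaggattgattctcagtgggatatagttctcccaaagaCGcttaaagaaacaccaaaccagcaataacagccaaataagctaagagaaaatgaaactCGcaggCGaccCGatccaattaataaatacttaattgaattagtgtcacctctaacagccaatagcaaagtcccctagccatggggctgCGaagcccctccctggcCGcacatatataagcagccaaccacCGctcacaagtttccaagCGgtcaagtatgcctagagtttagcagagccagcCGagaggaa
Gad1 (both marks, chr2:70561879-70562178, plus strand): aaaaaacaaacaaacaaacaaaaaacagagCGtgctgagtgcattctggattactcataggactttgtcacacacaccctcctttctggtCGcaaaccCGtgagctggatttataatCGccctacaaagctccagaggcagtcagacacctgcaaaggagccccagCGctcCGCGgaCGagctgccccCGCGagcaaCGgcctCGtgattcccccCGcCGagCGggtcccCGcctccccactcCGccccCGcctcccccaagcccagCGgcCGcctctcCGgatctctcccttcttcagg
Slc17a7 (both marks, chr7:45163671-45163970, plus strand): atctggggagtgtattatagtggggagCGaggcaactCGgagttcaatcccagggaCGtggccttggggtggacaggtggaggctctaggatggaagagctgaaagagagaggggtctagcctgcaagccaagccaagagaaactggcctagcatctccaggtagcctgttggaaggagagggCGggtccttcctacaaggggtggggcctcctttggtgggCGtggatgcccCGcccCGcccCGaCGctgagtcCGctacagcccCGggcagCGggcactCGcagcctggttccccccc
Pyy (H3K27me3 only, chr11:102107783-102108082, minus strand): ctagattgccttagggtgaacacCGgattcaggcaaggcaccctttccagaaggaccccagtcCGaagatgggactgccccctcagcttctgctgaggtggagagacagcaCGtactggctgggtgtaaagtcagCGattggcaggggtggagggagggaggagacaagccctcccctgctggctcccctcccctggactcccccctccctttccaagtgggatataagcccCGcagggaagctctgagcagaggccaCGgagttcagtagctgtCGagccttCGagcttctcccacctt
Tgm1 (H3K27me3 only, chr14:55713443-55713742, minus strand): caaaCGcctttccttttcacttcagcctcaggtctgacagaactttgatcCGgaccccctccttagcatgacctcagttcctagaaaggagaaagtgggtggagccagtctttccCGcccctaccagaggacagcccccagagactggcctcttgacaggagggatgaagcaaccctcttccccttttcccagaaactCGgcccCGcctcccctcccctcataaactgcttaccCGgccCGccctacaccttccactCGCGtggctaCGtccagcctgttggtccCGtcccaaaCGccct
Olfr1014 (neither mark, chr2:85776336-85776635, plus strand): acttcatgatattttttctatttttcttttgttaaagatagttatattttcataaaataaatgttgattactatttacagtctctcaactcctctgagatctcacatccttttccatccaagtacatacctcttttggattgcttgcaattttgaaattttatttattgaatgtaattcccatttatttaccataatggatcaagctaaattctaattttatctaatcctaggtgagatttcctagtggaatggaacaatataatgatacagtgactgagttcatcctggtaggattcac

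H2ac20, a histone gene that comes first in its class by the lower of its H3K4me3 values, had 9 CpG in its 300 bases, and Gad1, with both marks, had 21. Pyy and Tgm1, with H3K27me3 only, had 8 and 12, and Olfr1014, an olfactory receptor gene with neither mark, had 0. The median number of CpG was 22 over promoters with H3K4me3 only (quartiles 15 and 29), 17 with both marks (9 and 26), 4 with H3K27me3 only (2 and 7) and 2 with neither (1 and 4). H2ac20 and Gabra6, which had 2, therefore lay below the lower quartile of their class, and so did H3c10, with 8, while Pyy and Tgm1 lay above the upper quartile of theirs, so the sequences shown do not carry the difference between the classes.

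H3K4me3 without H3K27me3 marked genes that every cell uses and genes of neurons in general. Of 24 housekeeping genes, 23 had H3K4me3 only, and so did 70 of 80 genes with ribosomal protein symbols and 16 of 22 pan-neuronal genes, against 41.7% of all genes. With 1 of the 4 libraries left out, 19 to 23 of the housekeeping genes were in this class. Eef2, a translation elongation factor gene, had 35.9% and 43.4% H3K4me3 and 0% H3K27me3 in both libraries. Stmn2, which encodes a microtubule regulator of growing axons, had 40.2% and 41.5%, and Tubb3, the neuronal beta-tubulin, 42.1% and 41.3%. The 3 ribosomal symbols with neither mark were Rpl10l, Rpl32l and Rpl39l, which are copies of other ribosomal protein genes and may share reads with them. B2m, the light chain of class I histocompatibility molecules, was the 1 housekeeping gene with both marks, with 38.0% and 38.4% H3K27me3.

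By the lower of the 2 H3K4me3 values, the first genes of this class that had no H3K27me3 peak were the histone genes H2ac20 and H2ac21, which lie side by side on chromosome 3, share most of their windows and count as 1 site. H2ac20 had 68.6% and 71.9% of its windows covered. Next came Cited2, a transcriptional coregulator, with 67.4% and 71.0%, Celsr3, a cadherin of axon guidance, with 61.8% and 62.2%, and Pcbp1, an RNA-binding protein gene, with 60.6% and 78.0%. The Polycomb and Trithorax genes, whose proteins write, read or remove these marks or are subunits of such complexes, were themselves mostly in this class, 28 of 38. The methyltransferase gene Kmt2a had 41.7% and 43.4% H3K4me3 and 0% H3K27me3 in both libraries. Members with both marks included the Polycomb genes Cbx8, Bmi1 and Phf19. Cbx8 had 25.2% and 25.1% H3K4me3 with 34.7% and 45.8% H3K27me3.

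Immediate early genes, which neurons switch on within minutes of activity, fell into 13 with H3K4me3 only and 10 with both marks out of 23. With peaks of a -log10 p of at least 2 the split was 22 and 1. Junb had 61.8% and 54.4% H3K4me3, Jun 58.1% and 60.5%, and Egr1 42.3% and 46.3%, with 0% H3K27me3 at Egr1 in both libraries. Egr3 had both marks, with 26.9% and 38.5% H3K4me3 and 39.8% and 40.1% H3K27me3. H3K27ac was at 22 of the 23 in both inhibitory libraries and at 17 in both excitatory libraries.

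**Figure D1:**
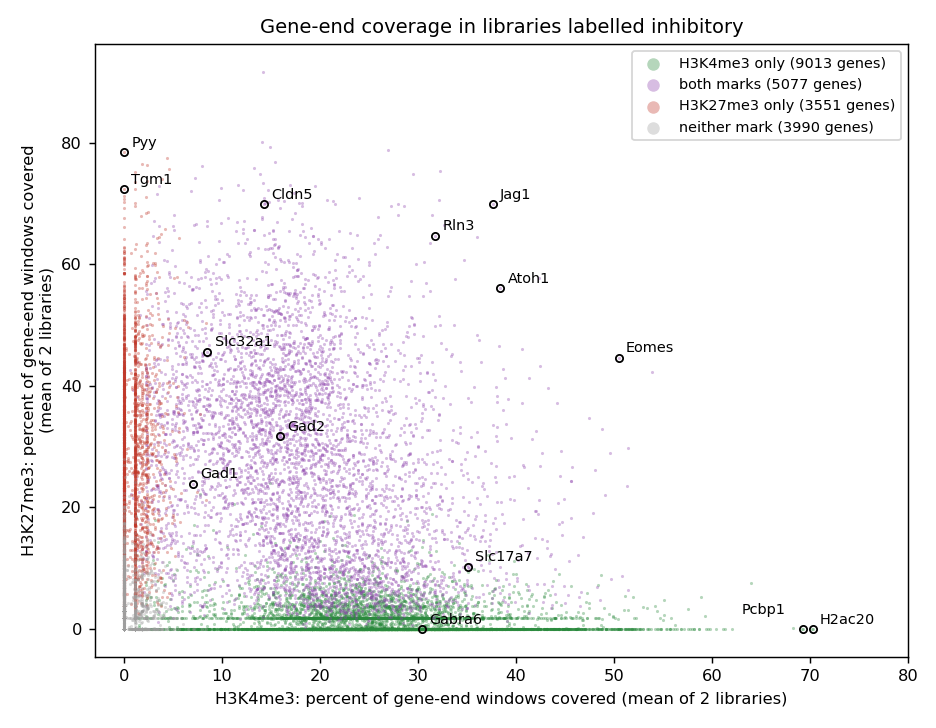
Percent of the gene-end windows covered by H3K4me3 (x axis) and H3K27me3 (y axis), each the mean of the 2 libraries labelled inhibitory, with 1 point per gene coloured by class and some genes named. Genes with H3K4me3 only lie along the bottom, Pyy and Tgm1 at the left edge, and Gad1, Gad2 and Slc32a1 among the genes with both marks at low H3K4me3.

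Both marks together were found at genes of development and of signalling between cells. Of 42 ligand and receptor genes of the Wnt, Hedgehog, BMP, FGF and Notch pathways, 36 had both marks, 4 H3K4me3 only and 2 H3K27me3 only, against 23.5% of all genes with both. With 1 library left out the number was 36 to 38. It could not fall, because a mark then needs a peak in the remaining library alone, so this is no measure of stability. With peaks of a -log10 p of at least 2 it was 14, and 26 then had H3K4me3 only. Nog, which encodes a BMP antagonist, had 27.6% and 36.0% H3K4me3 and 50.6% and 49.2% H3K27me3. Fgf8, a growth factor of brain organizers, had 26.6% and 28.7% H3K4me3 and 55.3% and 32.8% H3K27me3. Jag1, a Notch ligand and 1 of the 8 genes with the highest lower value of both marks, had 36.7% and 38.5% H3K4me3 and 75.5% and 64.2% H3K27me3, with no H3K27ac in either inhibitory library.

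Transcription factor genes of development were split between both marks and H3K27me3 only. Of 53 homeobox and paired genes, 4 had H3K4me3 only, 31 both marks and 18 H3K27me3 only, but with peaks of a -log10 p of at least 2 these were 27, 3 and 3, and 20 had neither. Among them Gsx1, of the ventral forebrain and spinal cord, had 33.1% and 38.9% H3K4me3 with 44.3% and 52.4% H3K27me3. The 39 HOX genes, which set positional identity along the body axis, had no member with H3K4me3 only, 16 with both marks and 23 with H3K27me3 only. No HOX gene had H3K27ac in both libraries of either neuron type. Hoxd9 had both marks, with 15.2% and 23.1% H3K4me3 and 37.9% and 56.8% H3K27me3, while Hoxb1 had 45.3% and 35.8% H3K27me3 and at most 2.77% H3K4me3 by library. With the stricter peaks 10 HOX genes had H3K4me3 only and 29 neither, so none was then counted with H3K27me3. That threshold is not a like measure for broad and narrow peaks. As deposited, no HOX gene was at 0% H3K27me3 in either inhibitory library, and the median coverage was 25.2% and 32.4%. Members of a cluster share windows. Of 44 other developmental factors 30 had both marks and 11 H3K27me3 only, and of 27 proneural and lineage bHLH genes 17 and 6. With the stricter peaks both marks were at 3 of the 44 and 1 of the 27, and 26 and 15 had H3K4me3 only.

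Atoh1, the bHLH gene that specifies granule cells, had 35.7% and 41.1% H3K4me3 together with 59.3% and 52.8% H3K27me3 in the libraries labelled inhibitory, against 0% and 21.6% H3K4me3 with 55.3% and 59.2% H3K27me3 in the excitatory ones. Eomes, a T-box factor of cortical progenitors and of unipolar brush cells in the cerebellum, had 49.4% and 51.6% H3K4me3 and 41.0% and 48.2% H3K27me3 in the inhibitory libraries. In the excitatory libraries it had 13.1% and 28.6% H3K4me3 and 46.0% and 58.3% H3K27me3. Both genes were named for high coverage in the inhibitory libraries. Their lower H3K4me3 in the excitatory libraries is therefore not read as a difference between the types. Other leading members were Adm, which encodes a vasodilator peptide, Insm1, a zinc-finger gene of neuroendocrine differentiation, Cebpa, a myeloid and liver factor, Ier3 and the histone gene H3c10, whose near-identical copies may share reads.

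Genes of other neuron types, like those of the inhibitory list (20 of 26), were mostly in the class with both marks when the peaks were taken as deposited. This held for 14 of 21 excitatory forebrain genes, 11 of 15 striatal projection neuron genes and 22 of 30 genes of thalamic, hypothalamic and brainstem neurons. With peaks of a -log10 p of at least 2 both marks were at 4, 5 and 4 of these genes, and 15, 7 and 20 had H3K4me3 only. In the excitatory libraries 16 of the 21 excitatory forebrain genes had both marks as deposited, so this class was not particular to genes of other types. Tbr1, a T-box factor of deep cortical layers, had 34.3% and 35.9% H3K4me3 with 34.2% and 41.7% H3K27me3 in the inhibitory libraries, and 0% and 12.0% with 26.3% and 28.7% in the excitatory ones. Drd2, a dopamine receptor gene of striatal neurons, had 15.8% and 16.7% H3K4me3 with 38.9% and 42.9% H3K27me3. Drd1, the other main striatal dopamine receptor, had H3K27me3 only, at 52.3% and 41.0%. Of 14 monoaminergic and cholinergic genes, 7 had both marks and 7 H3K27me3 only, and with the stricter peaks 3 and 3, with 4 in each of the other classes. Slc6a2, the noradrenaline transporter, was among these with 46.8% and 64.6% H3K27me3 and no H3K4me3 peak. Among inhibitory neuron genes Calb2, Reln and Prox1 had H3K4me3 only, and these 3 are also known from granule cells of the cerebellum or hippocampus. Sst and Vip were among those with H3K27me3 only: Sst, the somatostatin gene of an interneuron class, had 51.5% and 40.4%, with no H3K4me3 and no H3K27ac peak in either inhibitory library.

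Neuropeptide genes covered all 4 classes, with 3, 13, 11 and 3 of 30 in the order above. Rln3, which encodes relaxin-3 of the brainstem, had 27.1% and 36.4% H3K4me3 with 65.3% and 64.2% H3K27me3. Kiss1, of hypothalamic reproductive control, had 51.1% and 51.7% H3K27me3 and no H3K4me3. Cort and Pmch had no peak of either mark. With the stricter peaks the counts were 5, 11, 5 and 9.

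The class with H3K27me3 only held many genes of other tissues, but not these alone, since 7 of 14 monoaminergic and cholinergic genes were in it. Of 109 keratin and keratin-associated genes, 67 were in this class, 29 had neither mark, 10 both and 3 H3K4me3 only, against 16.4% of all genes with H3K27me3 only. Pyy, a gut peptide gene (gene ID 217212, chromosome 11, 102106676 to 102107832), came first by the lower of its values, 81.9% and 74.9%. Tgm1, a transglutaminase of the skin barrier, had 71.3% and 73.3%, and Tshb, a thyrotropin subunit of the pituitary, 62.3% and 62.0%. All 3 had 0% H3K4me3 in both libraries. Of 22 genes of sperm, skin and gut, 11 had H3K27me3 only, 7 neither mark, 2 both and 2 H3K4me3 only. With peaks of a -log10 p of at least 2, Pyy and Tgm1 remained in this class and Tshb had neither mark. H3K27me3 only was then at 13 keratin genes and at 0 of the sperm, skin and gut genes.

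Genes of other brain cells were spread over the classes. Microglial genes had 3 with both marks, 9 with H3K27me3 only and 2 with neither of 14, and Cx3cr1, a chemokine receptor of microglia, had 39.7% and 33.3% H3K27me3 and no H3K4me3. Oligodendrocyte genes had 7, 5 and 2 in the same order, vascular genes 6, 5 and 2 with 1 more in the class with H3K4me3 only, and astrocyte genes 7, 3 and 1 with 3 more. With the stricter peaks H3K27me3 only was at 1 microglial, 2 oligodendrocyte, 0 vascular and 0 astrocyte genes. Cldn5, a tight-junction gene of brain endothelium, had both marks with 65.2% and 74.6% H3K27me3 and 17.0% and 11.6% H3K4me3.

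Neither mark was the rule at sensory receptor genes of the nose. Of 1106 olfactory receptor genes, 802 had neither mark and 299 had H3K27me3 only, and of 353 vomeronasal receptor genes 310 and 40. With the stricter peaks H3K27me3 only was at 3 olfactory and 0 vomeronasal genes. H3K4me3 was counted at 5 olfactory and 3 vomeronasal genes. Such families lie in arrays of similar copies, where reads that align to several places may be lost, and the part of this was not tested. Over the X chromosome 465 of 966 genes (48.1%) had neither mark, against 18.4% of all genes.

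**Figure D2:**
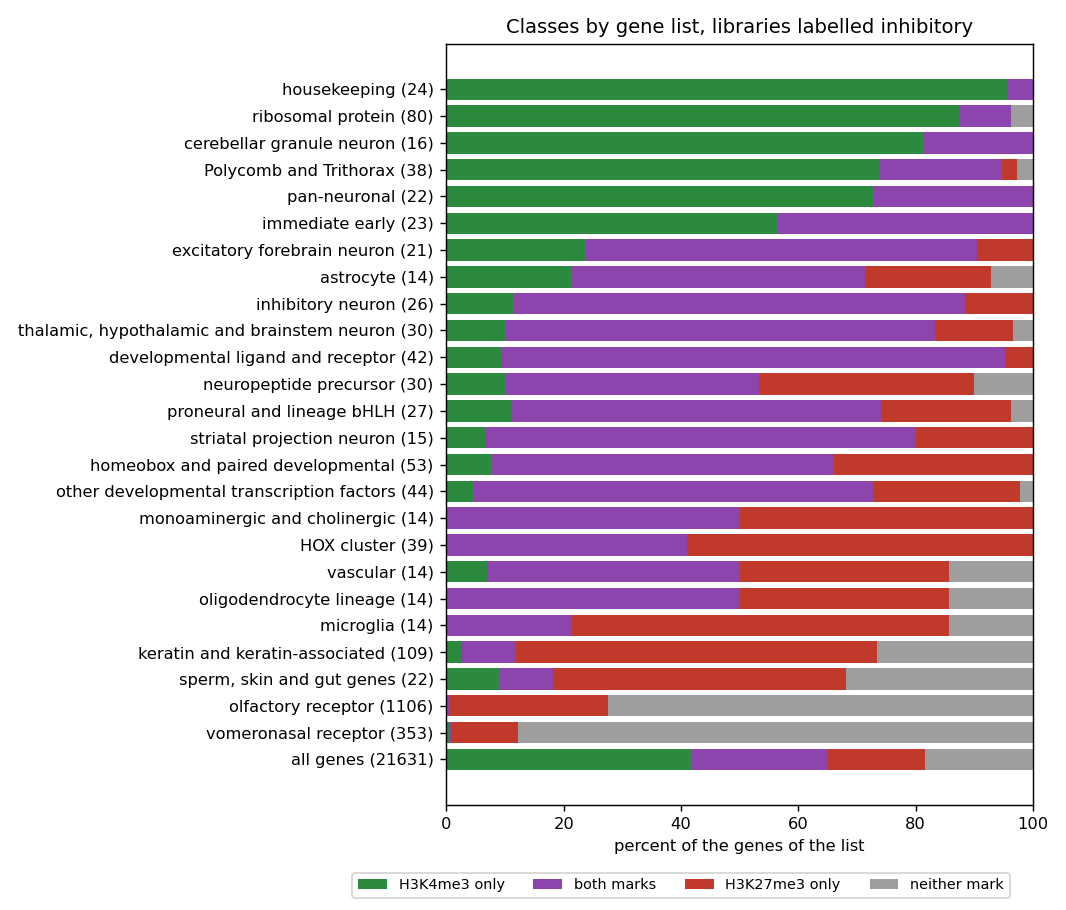
Share of the genes of each list in each class (bars, percent of the genes of the list, number of genes in parentheses) in the libraries labelled inhibitory, with all genes at the bottom. Housekeeping, ribosomal and granule neuron genes are mostly H3K4me3 only, developmental genes mostly carry both marks or H3K27me3 only with the peaks as deposited, and 802 of 1106 olfactory receptor genes carry neither.

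How much of the window each mark took is described here from the same 4 libraries that made the classes. The median H3K4me3 coverage was 25.04% and 25.9% at genes with H3K4me3 only and 17.5% and 18.1% at genes with both marks. The median width of the widest H3K4me3 peak was 1790 and 1928 bp at genes with H3K4me3 only, and 1282 and 1382 bp at genes with both marks. H3K27me3 covered a median of 27.9% and 25.5% at genes with both marks and 24.5% and 23.9% at genes with H3K27me3 only, and its widest peak was wider at genes with both marks, 2173 and 2078 bp against 1533 and 1509 bp.

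Genes with both marks mostly had them at the same end. Of the 5077 genes with both, 4408 (86.8%) had them at the same end. The strand was known for 3924 of these genes, of which 77.1% had both marks at the start and 17.0% at the far end. H3K4me3 alone lay at the start in 97.8% of its genes with a known strand and at the far end in 27.3%, and H3K27me3 alone in 83.8% and 67.5%. An end of another gene lay in a window of 49.1% of the genes with H3K4me3 only, 31.5% of those with both marks, 16.0% of those with H3K27me3 only and 11.4% of those with neither, so a mark may belong to a neighbour. Genes with both marks were also the longest, with a median of 26892 bp, against 21187 bp with H3K4me3 only, 13062 bp with H3K27me3 only and 4942 bp with neither.

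H3K27ac, a mark of active promoters and enhancers that cannot share a lysine with H3K27me3, was not used to form the classes. In the libraries labelled inhibitory a H3K27ac peak lay at 97.6% and 98.5% of the genes with H3K4me3 only, 71.7% and 74.4% of those with both marks, 10.8% and 11.9% of those with H3K27me3 only, and 8.45% and 7.94% of those with neither. The steps between the first 3 classes were larger than the difference between the libraries. In the excitatory libraries the same genes had a H3K27ac peak in 93.0% and 97.5%, 76.3% and 90.7%, 25.8% and 50.8%, and 9.70% and 18.997%. Of the peaks of these excitatory H3K27ac libraries 2.57% and 4.94% had a q below 0.05, against 31.8% and 35.1% in the inhibitory ones, and the part of this in the shares was not tested.

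The genes with both marks were split by whether both inhibitory libraries had H3K27ac at the same gene end. The genes called without it include some with a peak in 1 library or at different ends. At 3319 of them H3K27ac was present in both inhibitory libraries, and the median H3K27me3 coverage was 20.6% and 18.8% and that of H3K4me3 20.2% and 20.7%. At the other 1758 genes, H3K27me3 covered a median of 37.9% and 37.0% and H3K4me3 12.3% and 13.0%, so H3K27me3 was broader and H3K4me3 narrower. Both marks lay at the same end in 81.9% of the genes with H3K27ac and 96.2% of those without. EGR1 was present in both inhibitory libraries at 84.4% of the genes with H3K27ac and 44.8% of those without. Nog, Atoh1, Jag1, Gad1 and Slc32a1 were among the genes without.

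H3K4me1, a mark of enhancers and of the flanks of promoters, separated the class with both marks from H3K27me3 only. It was present in 96.9% and 94.7% of the genes with H3K4me3 only and 96.4% and 91.8% of those with both marks, and in 46.8% and 27.7% of those with H3K27me3 only and 18.05% and 11.0% of those with neither. EGR1, the zinc-finger factor induced by neuronal activity, had a peak at 95.0% and 97.3%, 74.7% and 81.3%, 10.6% and 13.8%, and 2.93% and 3.58% of the genes of the 4 classes. The order of the classes was the same for EGR1 and H3K27ac in all 8 libraries of both types. With the stricter peaks the class with both marks had H3K27ac in both libraries at 44.9% of 1253 genes, against 65.4% of 5077 with the peaks as deposited.

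**Figure D3:**
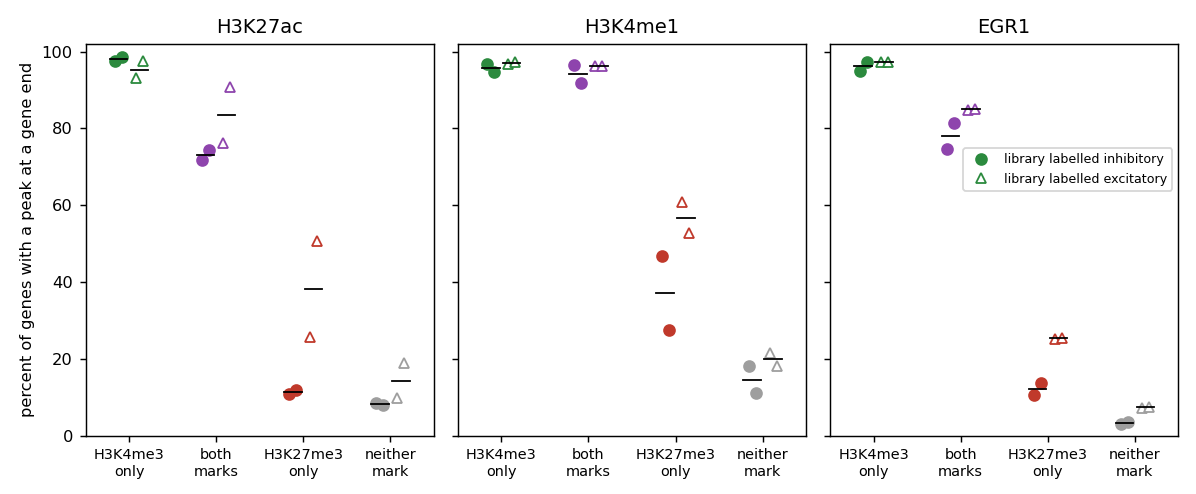
Percent of the genes of each class with a peak of H3K27ac, H3K4me1 or EGR1 at a gene end, 1 point per library (filled circles inhibitory, open triangles excitatory) with the mean of 2 as a line. All antibodies were most frequent at genes with H3K4me3 only or, for H3K4me1, about as frequent with both marks, and rarest at genes with neither.

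Promoter sequence also followed the classes. A promoter was found for 16127 of 19301 genes on the 17 chromosomes used for this (1 to 7, 9 to 14, 16, 17, 19 and X), and for 17274 genes in all. The median content of G and C was 61.3% with H3K4me3 only, 60.7% with both marks, 50% with H3K27me3 only and 42.7% with neither. The observed over expected CpG ratio had medians of 0.796, 0.665, 0.219 and 0.153. A ratio of at least 0.6, typical of CpG islands, was reached by 77.9%, 58.2%, 10.4% and 6.32% of the promoters, and by 48.5% of all. Genes with H3K27me3 only therefore had promoters closer in CpG to those with neither mark than to those with both.

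Short motifs were searched on both strands of these promoters. The TATA box (TATAAA) was in 5.89% of promoters with H3K4me3 only, 9.41% with both marks, 19.8% with H3K27me3 only and 29.7% with neither, and in 13.6% of all. The GC box (GGGCGG), bound by SP factors, was in 66.3%, 60.9%, 19.8% and 9.37%, and in 46.5% of all. The ETS core (CCGGAAG) separated the first 2 classes, with 21.2% against 8.76%, and 11.9% of all, and so did the NRF1 core (GCATGCG), with 7.85% against 3.53%, and 4.49% of all. The EGR core (GCGTGGG) did not, with 8.43% against 8.98%, and was in 2.61% and 1.19% of the other classes and 6.20% of all. Motifs rich in G, C and CpG can be more frequent in promoters with more of them, and the part of base composition in these shares was not tested.

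**Figure D4:**
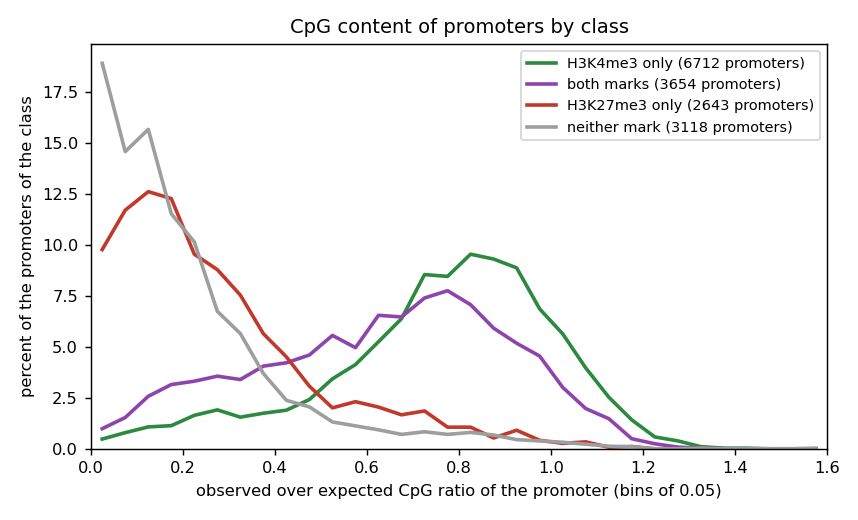
Distribution of the observed over expected CpG ratio of 300-base promoters (x axis, bins of 0.05; y axis, percent of the promoters of the class), 1 line per class. The lines for H3K4me3 only and both marks peak near 0.8, with medians of 0.796 and 0.665, and those for H3K27me3 only and neither are highest below 0.2 and run on to high ratios, with medians of 0.219 and 0.153 and upper quartiles of 0.373 and 0.278.

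The libraries labelled excitatory, classed in the same way, put 16740 of the 21631 genes (77.4%) in the same class. Of the genes with H3K4me3 only in the inhibitory libraries, 8299 (92.1%) were in the same class in the excitatory ones, and of those with neither 3233 (81.0%). Of the genes with both marks 2971 (58.5%) kept both marks, 1643 (32.4%) had H3K4me3 only and 399 (7.86%) had H3K27me3 only in the excitatory libraries. Of the genes with H3K27me3 only, 2237 (63.0%) were in the same class, 694 had neither and 491 both. As a share of the inhibitory class the overlap was lowest for both marks, but as a share of the excitatory class it was 74.1% for both marks and lowest, 67.7%, for H3K27me3 only. The genes with both marks in the inhibitory libraries had a median H3K27me3 coverage of 15.1% and 17.9% in the excitatory libraries, in which H3K27me3 covered 182 and 216 Mb of the genome. Thy1 and Stx1a, genes of neuronal surface and synaptic vesicle fusion, were of the 1643. Stx1a had 28.0% and 33.5% H3K27me3 in the inhibitory libraries and 0% and 0.487% in the excitatory ones, with 14.8% and 17.9% H3K4me3 in the inhibitory and 28.1% and 28.0% in the excitatory libraries.

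Differences in the independent marks between neuron types were tested with limma on the coverage of every gene. For H3K27ac 0 of 14869 genes tested (0%) passed a Benjamini-Hochberg adjusted p of 0.05, with 2045 at an unadjusted p under 0.05, of which 816 of 4433 tested were genes with both marks. For EGR1 0 of 14310 (0%) passed, with 2107 at an unadjusted p under 0.05, of which 849 of 4393 were genes with both marks. The genes with both marks that had the smallest p for H3K27ac were Fam43b, lower in the inhibitory libraries (0% and 0% against 23.4% and 29.8%, difference -28.6 points ± 4.39 SE, limma adjusted p = 0.243), and, in the other direction, the leptin gene Lep (33.1% and 37.9% against 0% and 11.0%, adjusted p = 0.243). For EGR1 they were Rhbdl3, a rhomboid-family gene, with 15.03% and 18.1% in the inhibitory libraries against 0% and 0% in the excitatory ones, and Cpxm2, a carboxypeptidase-family gene, with 0% and 0% against 22.1% and 25.9%, both with a limma adjusted p of 0.106. Fam43b, Rhbdl3 and Cpxm2 were covered in the libraries of 1 type alone and entered the test through it.

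For H3K4me1 219 of 16767 genes (1.31%) passed in limma, 93 higher (0.555%) and 126 lower (0.751%) in the libraries labelled inhibitory. Among 5027 tested genes with both marks 66 passed, 38 higher and 28 lower, a share of 1.31% that equals that of all genes. The count was 46 of 8931 with H3K4me3 only, 73 of 2047 with H3K27me3 only and 34 of 762 with neither. In the last 2 classes many genes entered the test through the libraries of 1 type, so nothing is read from their shares. Vgf, an activity-regulated neuropeptide precursor gene with both marks, had 9.55% and 0% H3K4me1 in the inhibitory libraries and 47.3% and 56.8% in the excitatory ones, a normalized difference of -46.1 points ± 7.61 SE (limma adjusted p = 0.0178). Mnx1, a homeobox gene of motor neurons, went the other way, with 44.8% and 63.9% against 19.1% and 10.6% (difference 40.6 ± 8.60 SE, limma adjusted p = 0.0407). The calls were not stable: the count over all genes was 0 or 1 with any 1 of the 4 H3K4me1 libraries left out.

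**Figure D5:**
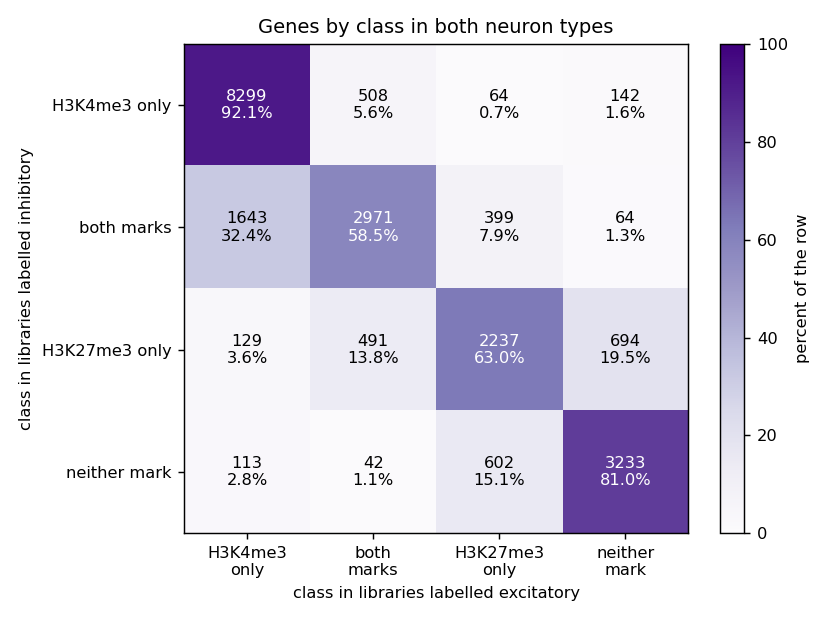
Number of genes, and percent of the row, by class in the libraries labelled inhibitory (rows) and excitatory (columns), with darker cells for larger percentages. The diagonal holds 16740 of 21631 genes, and the row with both marks is the most spread, with 1643 genes that have H3K4me3 only in the excitatory libraries.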

How the data were processed

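CUT&RUN libraries were made with a CUTANA kit and the NEBNext Ultra II kit, per the labels' protocols. Bowtie2 2.3.5, MACS2 2.2.5, SAMtools 1.12, Picard 2.25.0, Trim Galore 0.5.0 and cutadapt 1.18, with the build mm10, are listed in the submitters' processing notes, without settings or control libraries in the sources used here. Each library has its own deposited peak list, narrow for H3K4me3, H3K27ac and EGR1 and broad for H3K27me3 and H3K4me1, so no peaks were called on pooled libraries. The deposited columns are an integer score, a fold enrichment (a ratio), a -log10 p-value and a -log10 q-value per peak, all the authors' values, used here only to describe or filter peaks. The deposited H3K27me3 lists reach a p of 0.0993 and the inhibitory H3K4me3 lists 0.0495 and 0.0494. Peak names in the EGR1 lists carry other replicate numbers than the labels, and the labels were followed.

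Peaks were intersected with windows of 2 kb on each side of both ends of the RefSeq protein-coding genes (GRCm38.p6, the assembly of mm10), with Python 3.11.15. For H3K27ac, H3K4me1 and EGR1 the covered percent was quantile-normalized over 4 libraries. The test was limma 3.58.1 (R 4.3.3), inhibitory minus excitatory, for genes covered in 2 or more libraries, with Benjamini-Hochberg adjustment over all genes tested, a threshold of 0.05 and two-sided tests. Levels printed beside a difference are not normalized. CpG and motifs were counted in 300-base RefSeq promoters on chromosomes where at least 75% of the genes had one.

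Named genes are up to 8 per class with the highest lowest coverage over the libraries of the class, up to 4 per gene list and class by the same measure, up to 3 per direction and fit within the class with both marks, and Gad1, Gad2, Slc32a1, Slc17a7, Slc17a6, Emx1 and Egr1. The text names a part of these, and skips models without a proper symbol. The classes, the 25 gene lists and the tests were chosen with earlier results of these data known. Alternatives tried were the peak threshold, the window, the covered share, the gene start alone, equal peak numbers, each library left out, and, for the fits, normalization, scale, filter and a replicate block.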

Additional observations from a re-analysis of the deposited data

How the results depend on the processing

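Of 56 recomputed class counts 44 stayed within 1.5 times the value reported and 12 did not. With a -log10 p of at least 2 the classes with both marks, H3K27me3 only and neither held 1253, 495 and 7256 genes, and with at least 3 they held 54, 42 and 8173. With at least 25% of a window covered, both marks and neither came to 1802 and 6888. Both marks were at 9106 genes within 5 kb, and with a mark in either library both and neither came to 9838 and 2220. The gene start alone could be used for the 17274 genes with a known strand and gave both marks at 3027, against 3924 of the same genes with both ends, which is within 1.5 times, although it is among the 12 when set against all genes. With 1 library left out the classes held 6935 to 9587 (H3K4me3 only), 5408 to 7155 (both), 2421 to 4599 (H3K27me3 only) and 2942 to 3832 (neither). With a library left out, or with a mark in either library, fewer libraries have to carry a mark. The class with both can then only grow and that with neither only shrink. The cause of the other shifts was not tested.

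For all genes and for genes with both marks, limma called 0 and 0 for H3K4me1 without quantile normalization, on a log2 scale, with no filter, with a -log10 p of at least 3 and with equal peak numbers, with 128 to 2963 genes at an unadjusted p under 0.05. It called 55 and 29 among genes covered in all 4 libraries, and 0 to 1 and 0 with 1 library left out. For H3K27ac the counts with 1 library left out were 0 to 477 and 0 to 181, the highest without excitatory replicate 1. For EGR1 with no filter they were 53 and 18, mostly lower in the inhibitory libraries. With the replicate number as a block, limma called 254 and 126 for H3K27ac and 849 and 258 for H3K4me1, and the block changed no call for EGR1. Samples of the same number share only that number: the correlations of their deviations were 0.0115 for H3K27ac, 0.0138 for H3K4me1 and -0.0168 for EGR1. Depth is unknown, so absence of a peak is not absence of a mark.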

Other observations

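Neighbouring genes tended to share a class. The next gene along the chromosome was in the same class for 61.8% of genes with H3K4me3 only, 38.2% with both marks, 36.6% with H3K27me3 only and 64.1% with neither, against 41.7%, 23.5%, 16.4% and 18.4% of all genes in these classes. Windows of neighbours can overlap, and the part of this was not tested. The longest run with H3K27me3 only was 16 genes on chromosome 11 from Krtap17-1 to Krt42 (99993232 to 100269951, mm10), keratin genes of hair and of other epithelia with 1 keratin-associated gene. A run of 14 on chromosome 12 from Serpina1e to Serpina3m (103946931 to 104394259) holds serine protease inhibitor genes of the liver. The longest run with neither mark was 104 genes on chromosome 7 ending at the vomeronasal receptor gene Vmn1r180 (19937305 to 23953356). The longest run with H3K4me3 only was 27 genes on chromosome 4 from Nsun4 to Eif2b3 (116033002 to 117086852), among them Urod, of heme synthesis, Prdx1, a peroxidase gene, and Mutyh, a DNA repair gene. The longest run with both marks was 9 genes.

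Many genes counted with 1 mark had a peak of the other in at least 1 library. Tlx3, a homeobox gene of excitatory hindbrain and spinal neurons, was counted with H3K4me3 only, but its H3K27me3 coverage was 0% in replicate 1 and 35.6% in replicate 2. Of the 9013 genes with H3K4me3 only, 6029 had no H3K27me3 peak in either library, and of the 3551 with H3K27me3 only, 2153 had no H3K4me3 peak in either. Ash2l, a subunit of the H3K4 methyltransferase complexes, was listed with H3K27me3 only at 15.4% and 24.8% and no H3K4me3, yet had H3K27ac at 6.49% and 4.20% in the inhibitory libraries.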
